A study of Mus musculus with 73 samples.

Results

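Prestin-high cells and prestin-negative cells are the extremes of a set of 73 hand-picked cochlear hair cells, separated by the level of Slc26a5, the gene of the outer hair cell motor protein prestin. Levels are in CPM, each count divided by the total of its library and scaled to 1000000. The 32 cells with Slc26a5 at 100 CPM or more were taken as prestin-high and the 22 cells below 10 CPM as prestin-negative, so 54 of the 73 cells were compared, and 19 cells lay between the thresholds. All 73 cells were picked from the cochlea at postnatal day 14 and are labelled as inner hair cells lacking Casz1, a zinc-finger transcription factor. All of them share 1 genotype: Atoh1Cre/+ together with Casz1flox/flox, the GFP reporter Rosa26-CAG-Loxp-stop-Loxp-3xGFP(Ai47) over the tdTomato reporter Rosa26-CAG-Frt-stop-Frt-tdTomato, and Fgf8-Flpo/+. Cre is driven by Atoh1, which is active in developing hair cells in general, and Flpo by Fgf8, an inner hair cell gene, and cells carrying both colours were picked. Both groups therefore share the floxed genotype, and the study's wild-type cells were not analysed here. No label names an animal, and the cells therefore count as 1 sample without replicates, and the values describe these libraries with no test between groups.

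The cochlea has inner and outer mechanosensory cells. Inner hair cells release glutamate at ribbon synapses onto the auditory nerve and carry Slc17a8, the vesicular glutamate transporter, and Otof, the calcium sensor of exocytosis. Outer hair cells change length through prestin in their lateral wall, buffer calcium with oncomodulin (Ocm), and receive inhibitory efferent input through a nicotinic receptor coupled to a calcium-activated potassium channel. Tbx2 in inner hair cells, and Insm1 and Ikzf2 in outer hair cells, help to set these identities.

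The split was made on Slc26a5, so its values only describe the groups. In the prestin-high cells the level ran from 126 to 1229 CPM with a median of 425. The lowest values inside that group were 126 and 128 CPM, and the highest outside it were 89.7 and 87.1 CPM. In the prestin-negative cells it ran from 0 to 6.25 CPM with a median of 0.237, and the nearest cells outside stood at 11.8 and 19.6 CPM. Negative is meant relative to the threshold: 4 of the 22 cells had no Slc26a5 count, 18 were under 1 CPM, and the highest count was 139. Within the prestin-high group there was a step from 213 to 319 CPM, with 10 cells below it and 22 above.

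Both groups passed as hair cells by their shared transcripts. Otof was at 10 CPM or more, the level called detected here, in all 32 prestin-high and all 22 prestin-negative cells, with medians of 2495 and 3280 CPM. Slc17a8 was likewise in every cell, at medians of 1208 and 1679 CPM. Myo7a, the motor protein of the hair bundle, had medians of 366 and 387 CPM, and Tmc1, of the transduction channel, 458 and 452 CPM. Of 16 general hair cell genes, 12 were neither higher nor lower by the call described next, as were 6497 of all 8618 genes tested. The 2 shares are close, so this count shows nothing particular to hair cell genes. Casz1 itself was detected in 23 of the 32 prestin-high cells (median 34.5 CPM, range 0 to 283) and in 17 of the 22 prestin-negative cells (median 53.9 CPM, range 0 to 226). Which exons were removed is not stated, so these reads do not check the deletion.

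A gene was called higher or lower when the group medians, each with 1 CPM added, differed by 2-fold or more and the higher median was 10 CPM or more. Among 8618 genes averaging at least 10 CPM over the 73 cells, Slc26a5 left out, 871 were higher in prestin-high cells (10.1%) and 1250 were lower (14.5%). A second call asked for a difference of 50 percentage points or more in the share of cells with the gene detected. It was met by 45 genes in the direction of the prestin-high cells (0.522%) and by 30 in the other (0.348%). The split was made on the same cells, so nothing is read from these percentages except the background for the gene lists below. No gene had groups that did not overlap: the calls describe shifts in medians, with single cells of each group inside the range of the other.

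**Figure D1:**
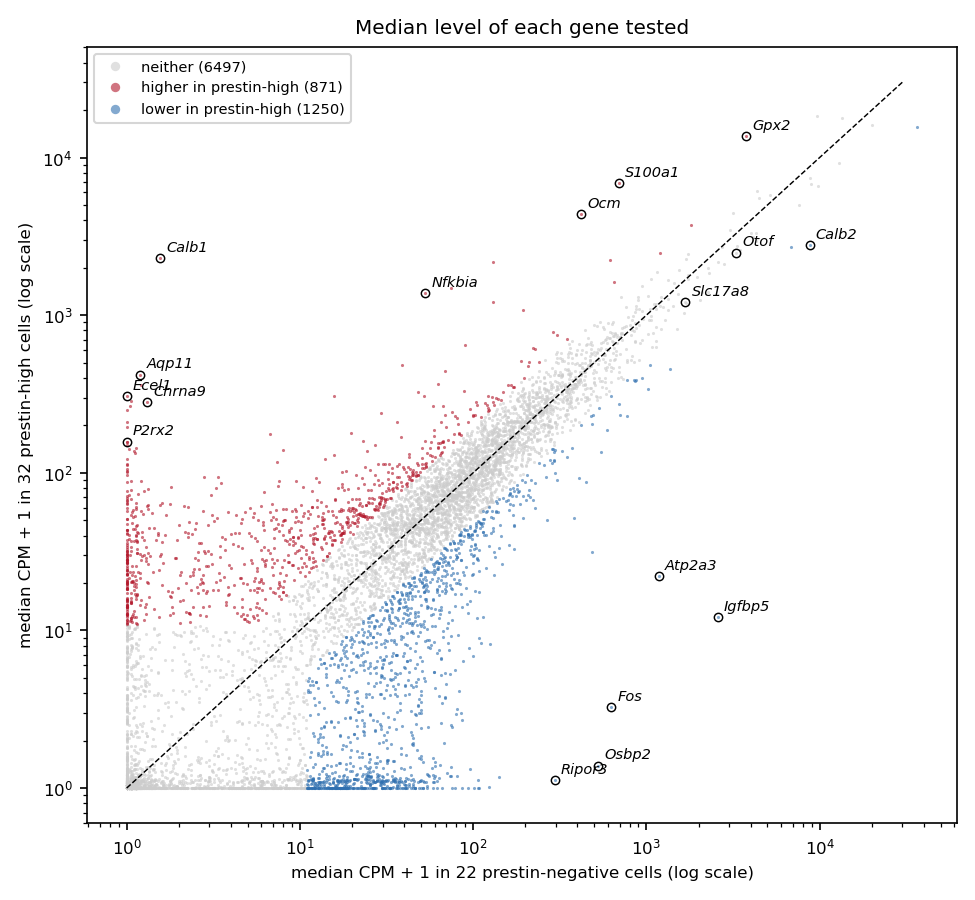
Median level of each of the 8618 genes in the 22 prestin-negative cells (x axis, CPM + 1, log scale) against the 32 prestin-high cells (y axis, CPM + 1, log scale); each point is a gene and the dashed line marks equality. The 871 genes called higher and 1250 called lower lie mostly at low medians, while Calb1, Aqp11, Ecel1 and Chrna9 stand far above the line and Osbp2, Igfbp5, Fos and Atp2a3 far below it.

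Outer hair cell genes were mostly higher in the prestin-high cells. Of 10 members tested, 7 were higher (70%, next to 10.1% of all genes) and 0 lower. The higher ones were Ocm, Aqp11, Sri, Kcnn2, Lbh, Chrna10 and Strip2. The median log2 ratio of the 10 was 2.04 on the CPM + 1 scale against 0.00 over all genes tested. Ocm ran from 357 to 17081 CPM (median 4367) in prestin-high cells and from 0 to 3880 CPM (median 417) in prestin-negative cells. The groups overlapped, with 19 of the 32 prestin-high cells above every prestin-negative cell. Aqp11, an aquaporin, ran from 22.3 to 1636 CPM (median 418) against 0 to 118 CPM (median 0.202). It was detected in 32 of 32 cells (100%, exact 95% interval 89.1 to 100) and in 7 of 22 (31.8%, 13.9 to 54.9), and 23 prestin-high cells exceeded every prestin-negative cell. Sri, the calcium-binding protein sorcin, had medians of 1076 and 192 CPM.

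Not every outer hair cell gene followed prestin. Mlf1 had medians of 519 and 260 CPM, just short of 2-fold, Car7, a carbonic anhydrase, 567 and 566 CPM, and Lmod3 77.9 and 114 CPM. Among members below the mean of 10 CPM, Ikzf2, which encodes the outer hair cell regulator helios, was found in 3 prestin-high and 0 prestin-negative cells, and Bcl11b in 0 and 1. For Ikzf2, 0 of 22 cells has an exact upper limit of 15.4%. Insm1 was detected in neither group. By group means in place of medians, 5 of the 10 members were higher.

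Prestin-negative cells were not uniformly without outer hair cell transcripts. Of the 22, 5 had Ocm under 2 CPM and 9 had 1000 CPM or more, a level that 30 of the 32 prestin-high cells also reached. The prestin-negative cell with the most Ocm, 3880 CPM, had no Slc26a5 count.

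Inner hair cell genes were mostly lower in the prestin-high cells. Of 11 tested, 6 were lower (54.5%, next to 14.5% of all genes) and 1 higher (9.09%, next to 10.1%). Their median log2 ratio was -1.66. Atp2a3, which pumps calcium into the endoplasmic reticulum, ran from 0 to 297 CPM (median 21.1) in prestin-high cells and from 124 to 2248 CPM (median 1178) in prestin-negative cells. It was detected in 16 of 32 cells (exact interval 31.9 to 68.1%) and in all 22 (84.6 to 100%). The groups overlapped: 11 prestin-high cells were above the lowest prestin-negative value and 6 prestin-negative cells lay at or below the highest prestin-high value, while 15 prestin-high cells were under 1 CPM. Calb2, the calcium buffer calretinin, ran from 347 to 17401 CPM (median 2775) against 2600 to 20245 CPM (median 8744), with 16 prestin-high cells below the lowest prestin-negative cell.

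Tbx2, which directs hair cells toward the inner fate, had medians of 50.6 and 193 CPM and was detected in 22 of 32 and 22 of 22 cells. Dnajc5b, a chaperone of the cysteine-string family, had medians of 228 and 773 CPM, Slc7a14, a lysosomal transporter, 59 and 226 CPM, and Shtn1 21.7 and 99.4 CPM. Fgf8, a secreted growth factor and the gene that drives Flpo in these mice, went the other way, at a median of 66.4 CPM in prestin-high cells (29 of 32 detected) and 0 in prestin-negative cells (8 of 22). Gata3, at 194 and 324 CPM, met neither call, and nor did Otof and Slc17a8. Rprm also met neither call, at medians of 0.237 and 0 CPM, but was detected in 14 of 32 and 0 of 22 cells. Brip1, below the mean of 10 CPM, was detected in 6 and 1 cells. By group means 2 members were higher and 5 lower. Among the 6 prestin-high and 13 prestin-negative cells of like mitochondrial share only 3 members were lower, and the log2 ratio of Calb2 was 0.15.

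**Figure D2:**
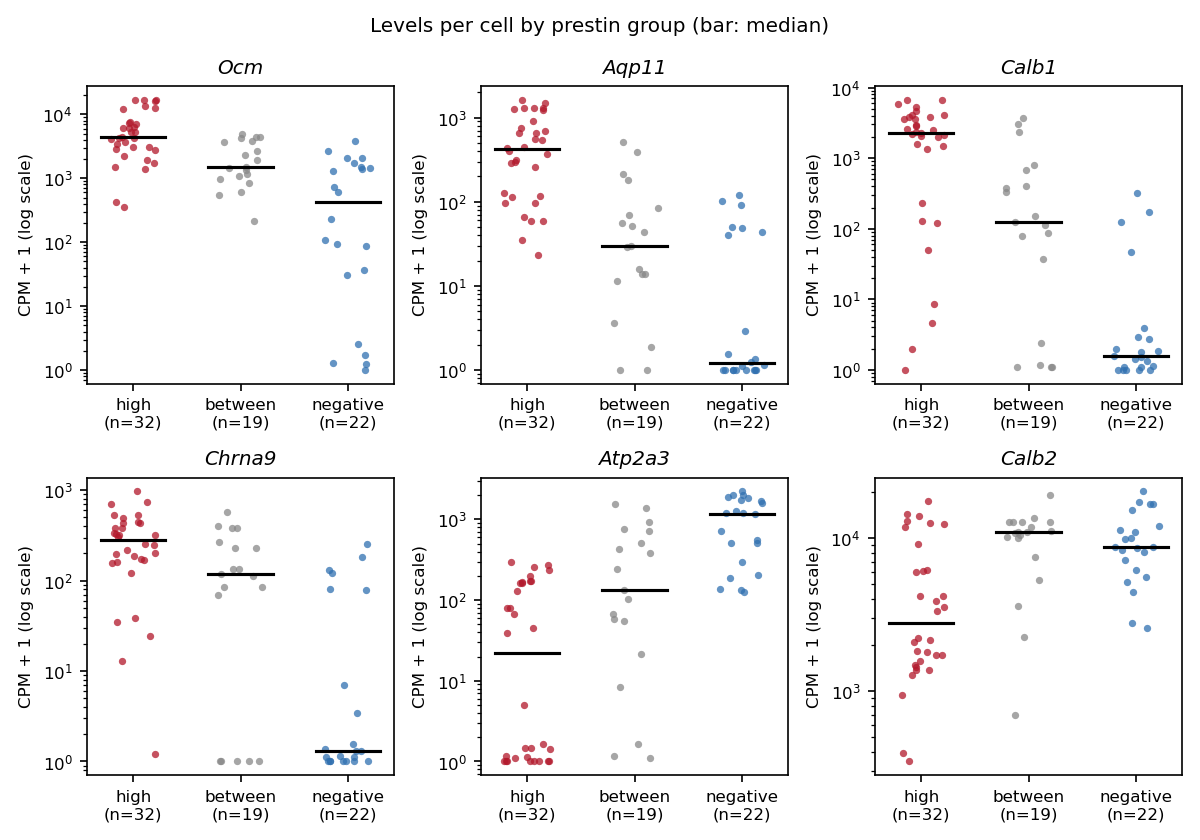
Levels per cell of 6 genes (CPM + 1, log scale) in the 32 prestin-high cells, the 19 cells between the thresholds and the 22 prestin-negative cells; points are cells and bars are medians. The medians of Ocm, Aqp11, Calb1 and Chrna9 rise and that of Atp2a3 falls from prestin-negative to prestin-high cells. The median of Calb2 is lowest in the prestin-high cells but highest in the cells between the thresholds. Calb1 and Atp2a3 are spread from near 0 to high levels within the prestin-high group.

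Genes of the efferent synapse gave 4 of 6 tested members higher (66.7%, next to 10.1% of all genes) and 0 lower, with a median log2 ratio of 3.21. Of the 4, Chrna10 and Kcnn2 are also counted among the outer hair cell genes called higher, so the lists are not independent. Chrna9, a subunit of the efferent acetylcholine receptor, ran from 0.203 to 980 CPM (median 280) against 0 to 251 CPM (median 0.319). It was detected in 31 of 32 cells (96.9%, 83.8 to 99.9) and in 6 of 22 (27.3%, 10.7 to 50.2), a gap of 69.6 points. Its partner subunit Chrna10 was detected in 19 and 3 cells, with medians of 27.1 and 0 CPM. Kcnn2, the calcium-activated potassium channel that the receptor feeds, had medians of 77 and 24.6 CPM. Kcnn2 was called neither by group means nor in both of the library ranges compared below. Its median in the cells between the thresholds was 77.3 CPM, like that of the prestin-high cells. Among the cells of like mitochondrial share, 1 member was higher and 1 lower.

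P2rx2, an ATP-gated cation channel of hair cells and neurons placed in the same list, was closer to on or off. It was detected in 22 of 32 prestin-high cells (68.8%, exact upper limit 83.9%; range 0 to 642 CPM, median 157) and in 0 of 22 prestin-negative cells (exact upper limit 15.4%), whose highest level was 1.16 CPM. Pole, the catalytic subunit of a replicative DNA polymerase, followed it with 21 and 1 cells and medians of 150 and 0 CPM. P2rx2 lies on chromosome 5 at 110339812 to 110343212 on the minus strand of mm10 and Pole at 110286306 to 110337474 on the plus strand, tail to tail with 2337 bases between them and no shared exon. Since no source says that strand was used in counting, transcription running past the end of one gene cannot be told apart from that of the other.

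Among calcium-binding proteins, 5 of 16 tested members were higher (31.25%, next to 10.1% of all genes) and 3 lower (18.75%, next to 14.5%). The median log2 ratio was 0.32. By group means 5 were higher and 1 lower, and in the cells of like mitochondrial share 4 and 1. Calb1, the buffer calbindin, had the largest log2 ratio of medians of all genes called higher, 10.53. It ran from 0 to 6768 CPM (median 2304) in prestin-high cells and from 0 to 318 CPM (median 0.563) in prestin-negative cells. It was detected in 28 of 32 (87.5%, 71 to 96.5) and 4 of 22 cells (18.2%, 5.19 to 40.3), and 24 prestin-high cells exceeded every prestin-negative cell. The log2 ratio of group means was 6.34. S100a1 had medians of 6904 and 691 CPM and overlapping ranges of 174 to 10914 and 222 to 2059 CPM. Hpcal1, a neuronal calcium sensor, had medians of 143 and 0.132 CPM. Besides Calb2, Cabp1, a calmodulin-like channel regulator, and Nrgn, a calmodulin-binding protein, were lower, at 0.847 and 17.6 CPM and at 0 and 37.6 CPM. Calb2 and Cabp1 were not called by means.

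Of 12 calcium pump and exchanger genes, 4 were higher (33.3%, next to 10.1% of all genes) and 1, Atp2a3, lower (8.33%, next to 14.5%). Atp2b2, the plasma membrane pump of the hair bundle, had medians of 209 and 35.3 CPM, detected in 29 and 13 cells, and Atp2c1, the Golgi pump, 57.6 and 0.329 CPM. Slc8a1, a sodium-calcium exchanger, had 47.9 and 20.6 CPM. Letm1, an exchanger of the inner mitochondrial membrane, had 56 and 10.1 CPM, but its log2 ratio was -1.01 among cells of like mitochondrial share. Group means gave 2 higher and 1 lower, and the cells of like mitochondrial share 2 and 2.

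Of 13 ribbon and active zone genes tested, 6 were lower (46.2%, next to 14.5% of all genes) and 0 higher. The median log2 ratio was -0.92. In the cells of like mitochondrial share 4 were lower and 2 higher, and the log2 ratio of Erc1 was 1.16. Rims2, a scaffold that recruits calcium channels and vesicles, ran from 0 to 507 CPM (median 88.4) against 3.04 to 656 CPM (median 302). Erc2, another active zone scaffold, had medians of 38.7 and 143 CPM, and Ppfia4, a liprin, 36 and 86.7 CPM. Pclo, the large scaffold piccolo, had 2.95 and 23 CPM, Erc1 3.72 and 15.1 CPM, and Unc13a, a priming factor, 0.273 and 23.8 CPM. The ranges overlapped for each of these. Pclo and Erc1 were not called by means, and Erc1 and Ppfia4 were not called in both of the library ranges compared below. Ctbp2, the gene of the ribbon protein ribeye, was alike at 95.6 and 99.6 CPM, and Cacna1d, the pore of the presynaptic calcium channel, at 280 and 236 CPM. Among vesicle and exocytosis genes, the lower ones were Sv2a, Nsf and Dnajc5b. Of the 20 tested, 3 were thus lower (15%, next to 14.5% of all genes) and 1 was higher (5%, next to 10.1%). In the cells of like mitochondrial share 0 were lower and 2 higher, with Sv2a at 0.93 and Nsf at 0.17. The member higher in the full groups, Rab27b, a small GTPase of vesicle docking, was detected in 21 prestin-high cells and 1 prestin-negative cell, with medians of 111 and 0 CPM.

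The prestin-high cells themselves fell apart by a set of on-off genes. Genes detected in at least 20 prestin-high cells and at most 1 prestin-negative cell were collected after the values were seen, which gave 11: Ecel1, Ifi203-ps, Gm7897, C1qtnf4, Tnc, Pole, P2rx2, Gm44618, Socs2, Sox10 and Rab27b. Of the 32 prestin-high cells, 22 carried 9 to 11 of them and 10 carried 0 to 2. Over all 73 cells, 26 carried 9 or more, 47 carried 3 or fewer and 0 carried 4 to 8. The remaining 4 of the 26 lay between the thresholds, with Slc26a5 from 19.6 to 87.1 CPM, so the set does not follow the prestin threshold exactly. The set was chosen on these cells, so its separation of the groups is a description only.

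**Figure D3:**
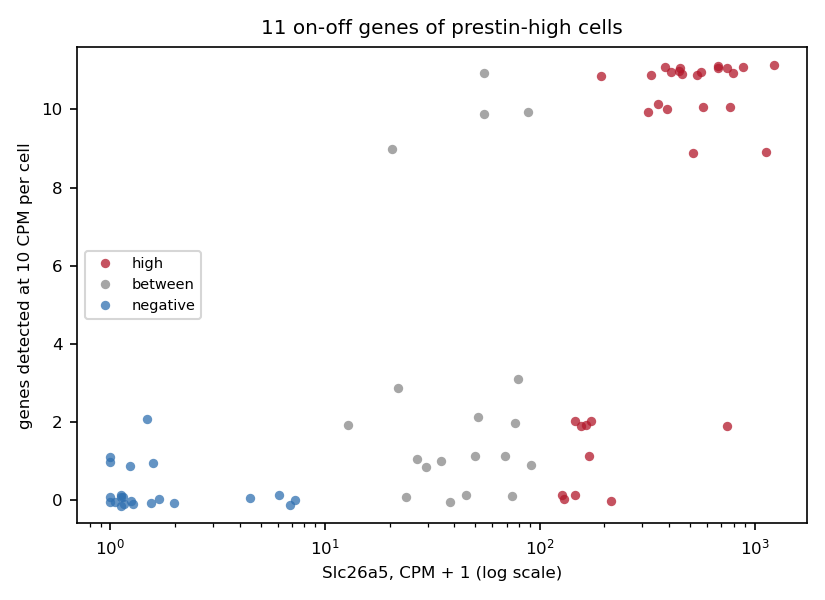
Number of on-off genes detected at 10 CPM per cell (y axis, points shifted slightly to show overlaps) against Slc26a5 (x axis, CPM + 1, log scale), for the 11 genes of prestin-high cells; points are cells, coloured by group. A total of 26 cells carry 9 to 11 genes and 47 carry 0 to 3, with no cell between.

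Prestin-high cells with and without the 11 genes differed in calcium-binding transcripts that did not enter the set. Calb1 ran from 1346 to 6698 CPM (median 2912) in the 22 cells with it and from 0 to 6768 CPM (median 83.6) in the 10 without. Calb2 ran from 347 to 6147 CPM (median 1760) with the set and from 5960 to 17401 CPM (median 12385) without, where prestin-negative cells had a median of 8744 CPM. Atp2a3 had medians of 0.452 and 186 CPM. S100a1 had medians of 7808 and 767 CPM, and Gpx2, a glutathione peroxidase, 14882 and 4484 CPM, next to 691 and 3762 CPM in prestin-negative cells. Ocm had medians of 5725 and 4195 CPM. Aqp11 had 652 and 96.1 CPM, although it was detected in all 10 cells without the set.

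Slc26a5 was itself higher in cells with the set, from 191 to 1229 CPM (median 525) against 126 to 743 CPM (median 159). The orders were not identical. Library 56 had 743 CPM of Slc26a5 and 6768 CPM of Calb1 but only 2 of the 11 genes, with Calb2 at 5960 CPM, and library 55 had all 11 genes at 191 CPM of Slc26a5. The median mitochondrial share of counts was 5.01% with the set and 6.20% without, and median totals were 19196096 and 18549288 counts; their part in the difference was not tested.

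The class I genes H2-D1 and H2-K1 were among the 15 largest ratios. Lists of antigen presentation, NF-kB and interferon response genes were added after values were seen, so their counts only describe. NF-kB factors are held in the cytoplasm by inhibitors until signalling releases them, and they drive genes that include their own inhibitors and the class I heavy chains. H2-D1 and H2-K1, class I heavy chains, had medians of 208 and 156 CPM in prestin-high cells and 0 in prestin-negative cells. H2-D1 was detected in 24 of 32 (75%, 56.6 to 88.5) and 2 of 22 cells (9.09%, 1.12 to 29.2), and H2-K1 in 25 and 4. The 2 genes are near-identical copies, so reads could be split between them. B2m, the shared light chain, was detected in 18 and 4 cells (medians 28.2 and 0 CPM), and Tapbp, the peptide-loading factor tapasin, in 17 and 7. In all, 4 of 6 antigen presentation genes tested were higher (66.7%, next to 10.1% of all genes) and 0 lower. Only these 6 of the 18 members reached the mean of 10 CPM, a filter that high levels in prestin-high cells alone can pass. Below it, Tap1 was detected in 2 and 0 cells, Tap2 in 6 and 0, Psmb10 in 7 and 6, H2-T23 in 2 and 1, and Psmb8 in neither group. B2m and Tapbp were less steady: in libraries 1 to 36 the log2 ratio of B2m was 0.09, and in libraries 37 to 73 that of Tapbp was -1.22.

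Of 20 NF-kB genes tested, 9 were higher (45%, next to 10.1% of all genes) and 0 lower, with a median log2 ratio of 0.93. Nfkbia, the inhibitor IkB-alpha, ran from 17.7 to 3855 CPM (median 1379) against 0 to 1945 CPM (median 52). Its groups overlapped widely, although all 32 prestin-high cells were above 10 CPM and 14 of 22 prestin-negative cells were. Nfkbib, a related inhibitor, had medians of 138 and 7.01 CPM, and Tnfaip3, a deubiquitinase that ends the signal, 87.9 and 0.0609 CPM. Among the factors, Rela had 104 and 24.3 CPM, Relb 63.2 and 0.592 CPM, Nfkb1 78.9 and 2.27 CPM, Rel 21.9 and 0 CPM, and Nfkb2 14.5 and 0 CPM. By group means 9 members were again higher. In libraries 1 to 36, 9 were higher and 2 lower, and in libraries 37 to 73, 10 and 1. Leaving out cells with any rare foreign marker at 50 CPM, 7 were higher and 1 lower, and among cells of like mitochondrial share 10 and 1. In prestin-high cells with the 11-gene set the median of Nfkbia was 1599 CPM, and in those without it 137 CPM.

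Of 8 interferon response genes tested, Ifit1 and Cxcl10 were higher (25%, next to 10.1% of all genes) and Stat2 was lower (12.5%, next to 14.5%). By group means 4 were higher and 0 lower. A further 15 of the 23 members were below the mean of 10 CPM. Cxcl10, a chemokine, was detected in 21 and 2 cells. Of 9 immune cell markers, 6 were detected in no cell, and their summed median was 0.0900 CPM in prestin-high and 0 in prestin-negative cells, with ranges of 0 to 307 and 0 to 90.5 CPM. By group means 1 of the 2 tested was higher. The 5 B lymphocyte markers summed to at most 290 CPM in prestin-high cells, in library 59, and 87.4 CPM in prestin-negative cells, with medians of 0 in both groups, and by means 1 of 3 tested was higher. Their part in these results was not tested.

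The promoters of H2-K1 and H2-D1 are shown because both were among the largest ratios, and that of B2m because it encodes their shared light chain. Sequences are from RefSeq on GRCm38.p6, 5′ to 3′ in the direction of the gene, from chr17:34000398-34000597 on the minus strand for H2-K1, chr17:35262914-35262943 on the plus strand for H2-D1 and chr2:122147437-122147636 on the plus strand for B2m. In GENCODE vM21 the H2-D1 gene starts at 35262730, so its printed stretch lies before the RefSeq start but inside the annotated gene. Longer transcripts reach into that window, and only 30 bases are printed for this reason. Capitals mark matches to GGGNNNTCC, an NF-kB-type motif, or GAAANNGAA, an interferon-response type, on either strand.
H2-K1: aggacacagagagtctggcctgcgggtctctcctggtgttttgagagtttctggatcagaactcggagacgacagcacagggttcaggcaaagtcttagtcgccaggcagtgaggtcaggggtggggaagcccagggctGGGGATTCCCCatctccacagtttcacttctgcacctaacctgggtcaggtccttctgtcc
H2-D1: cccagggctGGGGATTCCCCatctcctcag
B2m: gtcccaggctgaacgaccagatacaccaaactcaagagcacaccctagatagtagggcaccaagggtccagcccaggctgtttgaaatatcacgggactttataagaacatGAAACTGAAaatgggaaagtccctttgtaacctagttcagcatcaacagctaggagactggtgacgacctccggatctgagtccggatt

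Both heavy chain stretches held the same run, GGGGATTCCCC, in which 2 matches on opposite strands overlap, and B2m held GAAACTGAA. The 250 bases before each RefSeq start were searched. Of the 15 genes called higher in the added lists, 12 had a promoter in the table, 6 of them with the NF-kB-type motif (H2-D1, H2-K1, Nfkb2, Rel, Tnfaip3 and Cxcl10) and 4 with the interferon type (B2m, Nfkbia, Ifit1 and Cxcl10). Over all genes tested with a promoter the motifs were in 19% and 5.48%. With a further A at its end, the form searched first, the interferon type was in 3 of the 12 promoters and in 2.16% over all genes tested. Over all genes called higher they were in 18.1% and 4.92%, and over those called lower in 18.3% and 4.97%. TGANTCA, an AP-1-type motif, was in 2.75% of the genes called higher, 3.55% of those called lower and 3.70% of all tested. The motifs were chosen after values were seen, and a match is only a run of letters in this window.

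Transcription factors of hair cells had 12 of 35 tested members higher (34.3%, next to 10.1% of all genes) and 4 lower (11.4%, next to 14.5%). The median log2 ratio was 0.35. Eya1, a transcriptional coactivator of early ear development, had medians of 100 and 45.7 CPM. Isl1, a LIM-homeodomain factor, had 159 and 66.3 CPM, and Nr2f1, a nuclear receptor, 88.5 and 27.3 CPM. Barhl1, a homeobox factor of hair cell maintenance, was detected in 26 and 9 cells, and Lhx3, another LIM-homeodomain factor, was lower, in 8 and 12 cells. Pou4f3, needed for hair cell survival, was alike at 399 and 494 CPM. By group means, 6 of the 35 were higher and 5 lower. Leaving out cells with any rare foreign marker at 50 CPM, 6 were higher and 3 lower, and in the cells of like mitochondrial share the balance turned, with 4 higher and 6 lower. Eya1, Isl1 and Barhl1 were not called by means. Eya1 and Isl1 were also not called in both of the library ranges 1 to 36 and 37 to 73.

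Sox10, a factor of glia and of the early ear that is placed in this list and in the glial one, was detected in 22 of 32 prestin-high cells (range 0 to 215 CPM, median 65.3) and in 0 of 22 prestin-negative cells (highest 0.952 CPM). The 11 glial markers, Sox10 included, had summed medians of 98.4 and 0.277 CPM, with ranges of 0 to 302 and 0 to 154 CPM. Of the 11 glial markers, 3 were detected in no cell (Egfl8 and the myelin genes Mbp and Pmp22).

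Of 37 hair bundle genes tested, 31 met neither call, 3 were higher and 3 lower (8.11% each way), below the background of all genes. Pcdh15, a protein of the tip link, had medians of 109 and 35.3 CPM. Eps8l2, an actin-regulating protein of stereocilia, had 62.8 and 185 CPM, and Gpsm2, a protein of stereocilia growth, 135 and 293 CPM. None of Pcdh15, Eps8l2 and Gpsm2 was called by means or in both library ranges. Potassium channel genes gave 3 higher and 3 lower of 12 (25% each, next to 10.1% and 14.5% of all genes). In the cells of like mitochondrial share they gave 2 and 0. Kcnj13, an inward rectifier, had medians of 481 and 37.7 CPM, and Kcnab1, an auxiliary subunit, 125 and 346 CPM. Kcnma1, the large-conductance channel of inner hair cells, met neither call at 136 and 227 CPM.

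Enzymes against oxidative damage had 5 of 21 tested members higher (23.8%, next to 10.1% of all genes) and 0 lower. Gpx2 ran from 2098 to 22475 CPM (median 13727) against 2807 to 5967 CPM (median 3762). The prestin-negative cells formed a narrow band, and the prestin-high cells reached from below it to far above. Prxl2a, a peroxiredoxin-like protein, had medians of 2166 and 128 CPM, and Txnrd1, a thioredoxin reductase, 63.4 and 0 CPM. Gclc and Gclm, the subunits of glutathione synthesis, had 35.3 and 0.603 CPM and 124 and 59.5 CPM, and neither was called by means. Car2, a carbonic anhydrase, had 1214 and 129 CPM, and Anxa5, an annexin, 2247 and 616 CPM.

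**Figure D4:**
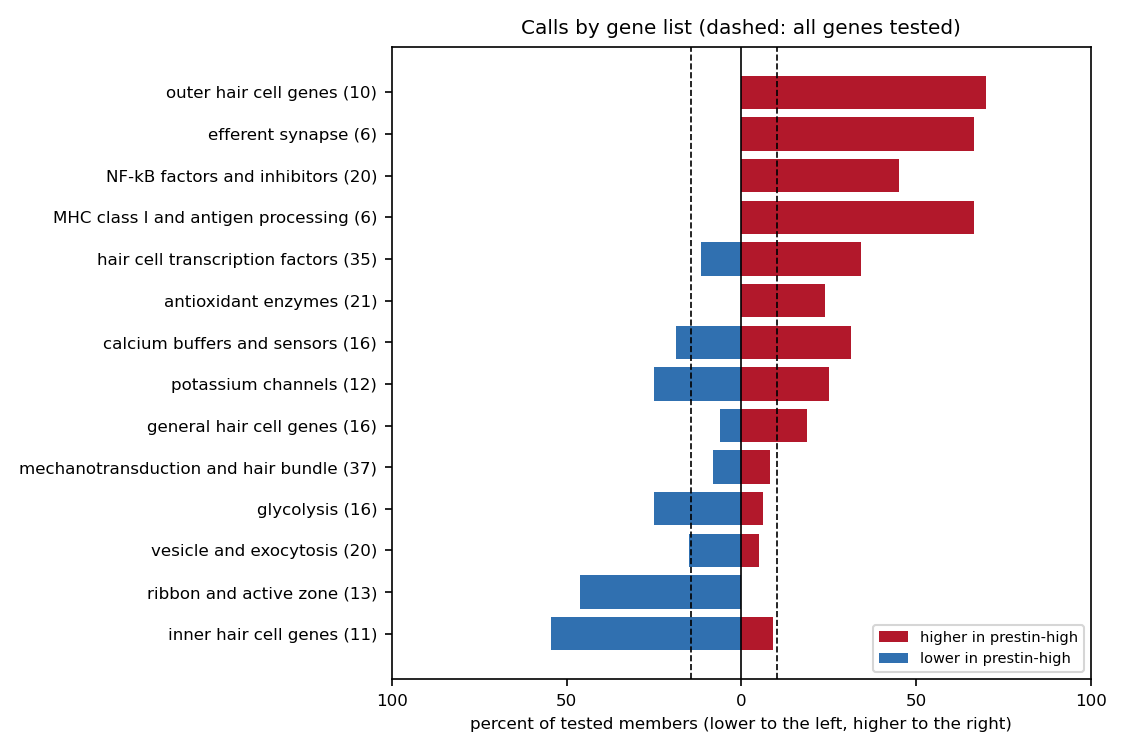
Percent of tested members of 14 gene lists called higher (to the right) or lower (to the left) in prestin-high cells, with the number tested in brackets; dashed lines mark the 10.1% and 14.5% of all 8618 genes tested. Outer hair cell and efferent lists reach 7 of 10 and 4 of 6 members higher, and Chrna10 and Kcnn2 are counted in both. Ribbon and inner hair cell lists reach 6 of 13 and 6 of 11 lower. The NF-kB and antigen presentation lists were added after values were seen.

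Among the other genes with the largest ratios, Ecel1, an endothelin-converting enzyme relative, was detected in 23 of 32 and 1 of 22 cells (medians 307 and 0 CPM). Atp8a2, a lipid flippase, had medians of 357 and 0.205 CPM, and Cubn, the endocytic receptor cubilin, 265 and 0.0480 CPM. Lce6a, a gene named for the cornified envelope of skin, had 283 and 0.0608 CPM, and Tspan8, a tetraspanin, 140 and 0.0334 CPM. The exons of Atp8a2, Cubn, Tspan8 and Pole overlap other genes, and their reads may be shared.

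At the other end, Igfbp5, which binds insulin-like growth factors, ran from 0 to 4229 CPM (median 11.1) in prestin-high cells and from 1955 to 5652 CPM (median 2582) in prestin-negative cells. It was detected in 16 of 32 and in all 22 cells. In prestin-high cells without the 11-gene set its median was 2066 CPM, and in those with it 0.973 CPM. Osbp2, an oxysterol-binding protein, had medians of 0.387 and 524 CPM, and split in the same way, at 354 CPM without the set and 0.0904 CPM with it. Ripor3 had 0.121 and 294 CPM, and Mlxipl, a carbohydrate-responsive transcription factor, 0.0205 and 122 CPM. Fos, the immediate early factor, ran from 0 to 787 CPM (median 2.28) against 0 to 2560 CPM (median 627). Cep112, a centrosomal protein, was detected in 4 and 18 cells. The exons of Ripor3, Mlxipl and Cep112 also overlap other genes.

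The 19 cells between the thresholds did not enter the calls. Their median lay between the group medians for 523 of the 871 genes called higher and 726 of the 1250 called lower (58.1% of those), next to 37.6% of the 7591 genes with unequal medians. The called genes were selected for a wide gap between the group medians, and the 7591 include genes with narrow gaps. A wide gap leaves more room for a median in between, so nothing is read from the difference between these shares. Ocm was at 1510 CPM there, Chrna9 at 117 CPM, Calb1 at 122 CPM, Aqp11 at 29 CPM and Atp2a3 at 134 CPM. Calb2, at 10874 CPM, and Slc7a14, at 237 CPM, were instead above the prestin-negative medians. P2rx2, at 0.0622 CPM, and Ecel1, at 0.0975 CPM, were near 0, and 15 of the 19 cells lacked the 11-gene set.

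Within the 32 prestin-high cells, ranks of Slc26a5 and of each gene were compared over cells that share library composition. Spearman values were positive for 63.7% of the genes called higher, 28.2% of those called lower and 44% of all genes. Values were 0.69 for Calb1, 0.68 for Aqp11, 0.55 for Ocm, 0.39 for Chrna9, -0.63 for Atp2a3 and -0.70 for Calb2. Slc26a5 chose the groups, and the same 32 cells divide by the 11-gene set, in which it was also higher, so these values describe the cells and support no call.

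Several library properties moved with the groups. The mitochondrial share of counts ran from 2.77 to 12.3% (median 5.08%) in prestin-high and from 1.81 to 12.9% (median 8.80%) in prestin-negative cells. The ribosomal protein share had medians of 2.17 and 1.62%, and total counts 19196096 and 15701534. Of 14 mitochondrially encoded genes tested, the ribosomal RNAs mt-Rnr1 and mt-Rnr2 were lower and 12 met neither call, and none of 73 cytosolic ribosomal protein genes was called. Library numbers in the titles also differed, with 13 prestin-high and 14 prestin-negative cells among libraries 1 to 36 and 19 and 8 among libraries 37 to 73. Called separately in these disjoint parts, 331 of the 871 genes were higher in both (38%) and 522 of the 1250 lower in both (41.8%). The labels do not say what the numbers stand for. Summed heat shock genes were alike, at 12280 and 12260 CPM, as were immediate early genes at 4846 and 4663 CPM. Supporting cell markers summed to medians of 6178 and 4357 CPM, mostly from Fbxo2, and strial markers to 116 and 52 CPM; the part of these properties in the results was not tested beyond the alternative settings. All 73 cells had reads of Y-linked genes, at 10.1 CPM or more in sum, and Xist reached at most 0.269 CPM, so sex did not separate the groups.

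**Figure D5:**
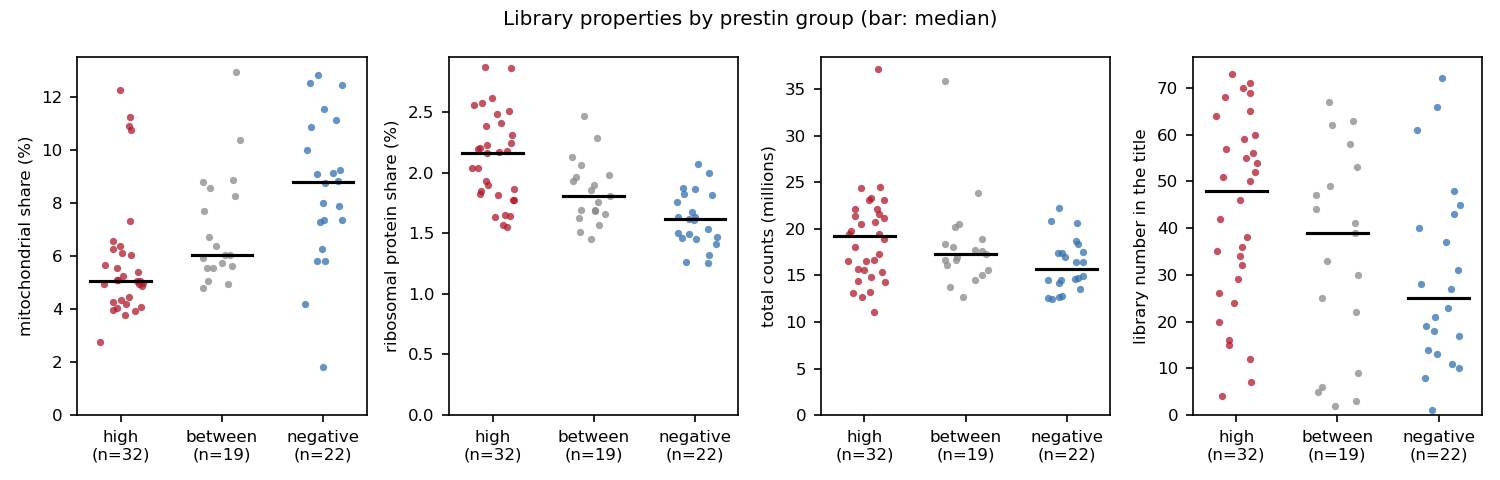
Mitochondrial share of counts (%), ribosomal protein share (%), total counts and library number of each cell in the 32 prestin-high cells, the 19 cells between the thresholds and the 22 prestin-negative cells; points are cells and bars are medians. The prestin-negative cells have the higher mitochondrial share (median 8.80% against 5.08%) and the lower library numbers (median 25 against 48), with wide overlap.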

How the data were processed

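Single cells were turned into full-length cDNA (Smart-Seq HT) and tagmented, per the labels' protocols. The deposited table holds raw counts, as whole numbers, of each gene in each cell. HISAT2 2.2.1, StringTie 2.2.1, featureCounts 2.0.1 and mm10 are named in the submitters' processing notes, without their settings. Annotation release: not given in the sources used here. Counts include PCR copies, as the kit adds no molecular identifiers, and strand use in counting is not stated.

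The reporter row WPRE (0.0161% of counts) was left out, which left 55291 gene rows and 11027945 to 37183702 counts per cell. Counts were scaled to CPM, groups were cut at 100 and 10 CPM of Slc26a5, and medians were compared with a pseudocount of 1 CPM. The groups come from 1 measured gene in 1 labelled group, so no p-value and no count model was used. Shares carry exact Clopper-Pearson 95% intervals over cells, which cover counting error only. No 2 libraries were identical. The comparison step was tested on simulated counts.

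The members, 35 gene lists and thresholds were chosen with earlier results of these data known, and 3 further lists were added after values were seen. Named genes are the 15 largest ratios and 10 largest differences in share in each direction, members of the lists, and the on-off genes; unofficial names were skipped by that rule except in the on-off set. Some genes that met these rules, and 1 set that held such a gene, are not reported here. Positions come from GENCODE vM21 and promoters from RefSeq; the interferon-type motif was shortened by its last letter after its matches had been seen. Alternatives changed the pseudocount, scaling, filters, thresholds, summary, depth and cells. Software was Python 3.11.15, pandas 2.3.3, numpy 2.4.6, scipy 1.17.1, matplotlib 3.10.9, R 4.3.3 and scran 1.30.0.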

Additional observations from a re-analysis of the deposited data

How the results depend on the processing

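Counts of genes higher and lower (871 and 1250) stayed within 1.5 times under scran size factors (971 and 1153), a pseudocount of 10 CPM (683 and 1017), thinning to 11027945 counts, totals without mitochondrial genes and either shifted Slc26a5 threshold. They were 429 and 405 with a mean of 50 CPM or more and 483 and 758 at a ratio of 4, both smaller by construction. Group means gave 763 and 830, of which only 348 and 410 were genes called by medians. Means thus repeated 39.95% of the 871 higher calls and 32.8% of the 1250 lower calls, so most calls depend on the summary. In the 6 and 13 cells of like mitochondrial share (5.82 to 10.4%), 1361 genes were higher and 1398 lower; 486 of the 871 and 692 of the 1250 were called again the same way, and 56 and 80 the opposite way. Of the 148 named genes called, 83 were called both by means and in both library ranges (50 higher, 33 lower).

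Genes differing by 50 points in share (45 and 30) numbered 25 and 16 with a mean of 50 CPM or more, 90 and 72 with prestin-high cells at 200 CPM or more, 86 and 195 in cells of like mitochondrial share, and 86 and 131 in libraries 37 to 73. The lower ones numbered 57 without cells carrying a rare marker, 17 at a detection level of 50 CPM and 65 in libraries 1 to 36; fewer cells entered most of these, and the cause was not tested otherwise.

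Of the 148, 22 changed sign in at least 1 setting. In cells of like mitochondrial share the log2 ratios were 0.15 for Calb2, -1.01 for Letm1, 0.42 for Kcnh2, 0.25 for Lrrc52, 1.16 for Erc1, 0.93 for Sv2a, 0.17 for Nsf, -0.18 for Tmie, 1.84 for Mapre2, -2.84 for Sox4, -0.25 for Atf3, 0.88 for Hk1, 0.055 for Ldha, -0.49 for Slc2a1, 0.021 for Tomm5, 0.78 for Tomm70a and 1.87 for Nell2. In libraries 1 to 36 Slc2a1 was at -0.17, and in libraries 37 to 73 Nr2f2 was at -1.59, Ier2 at 0.26, Ldha at 0.42 and Tapbp at -1.22. Atp1b2 was at 0.12 by means and Got1 at -0.037 without rare-marker cells. The cause was not tested.

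Called genes with the intermediate median between the groups numbered 1249, and 1071 with a pseudocount of 10 CPM. No paired analysis was possible because the labels give 1 group. Libraries of 1 to 36 and 37 to 73 were compared after seeing the data.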

Other observations

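Genes of survival and energy use went in both directions. Of 13 p53 and apoptosis genes tested, 5 were higher in prestin-high cells (38.5%, next to 10.1% of all genes) and 2 lower (15.4%, next to 14.5%). Cdkn1a, a cell cycle inhibitor, had medians of 473 and 205 CPM, Bcl2l1, an anti-apoptotic protein, 69 and 28.4 CPM, and Bcl2, its relative, was lower at 136 and 325 CPM. By group means 2 were higher and 1 lower. Bcl2l1 and Bcl2 were called neither by means nor in both library ranges, and Cdkn1a was not called in both library ranges. Of 16 glycolysis genes, 4 were lower (25%: Hk1, Pfkl, Tpi1 and Ldha) and 1 higher (6.25%: Slc2a1), while by means 0 were lower. In the cells of like mitochondrial share 2 were higher and 2 lower, with log2 ratios of 0.88 for Hk1, 0.055 for Ldha and -0.49 for Slc2a1. Gapdh met neither call at 927 and 1277 CPM. In the malate-aspartate shuttle and citrate cycle, 3 of 26 were higher (11.5%, next to 10.1% of all genes) and 1, Dlst, lower, with 1 and 0 by means. Mdh1, the cytosolic malate dehydrogenase, had medians of 1623 and 652 CPM.

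Sirt2, a deacetylase of tubulin, had medians of 1485 and 73.3 CPM and was detected in 32 of 32 and 18 of 22 cells; it was singled out after its values were seen. Among secreted proteins, Clu, an extracellular chaperone, had 305 and 14.7 CPM, and App, the amyloid precursor, 749 and 305 CPM. Of 17 immediate early genes 2 were higher and 3 lower (11.8% and 17.6%), and of 15 heat shock genes 0 and 1 (0% and 6.67%). All genes tested gave 10.1% and 14.5%.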
